A study of Mus musculus with 19 samples.

Results

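The comparison is of meiotic DNA double-strand breaks (DSBs) in hybrid male mice that carry either the B6 or a humanized Prdm9 allele opposite the SPRT allele. Its members were the autosomal hotspots of the deposited DMC1 tables of B6/SPRT and Hum/SPRT testes, 18522 in B6/SPRT and 15727 in Hum/SPRT, together 34249 of the 71181 autosomal hotspots in the 5 DMC1 tables of the series. A hotspot of one library was paired with a hotspot of the other when each was the nearest to the other and their centers lay within 500 bp. Hotspots were then described by the PRDM9 allele that the authors had assigned to them, SPRT, B6, HUM (humanized) or KO (seen in mice without PRDM9), or as unassigned. These are 2 of the 19 samples of the series, and each genotype had 1 DMC1 single-stranded DNA sequencing (SSDS) library.

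Both groups were adult male hybrids, with no treatment listed, of a B6 (C57BL/6) mother and a SPRT (SPRET/EiJ, Mus spretus) father, and whole testis was used. B6/SPRT males had wild-type Prdm9 from both parents. Hum/SPRT males had inherited from a heterozygous mother a B6 chromosome whose Prdm9 carries human zinc fingers in place of its own (those of the human B allele), and the same SPRT allele. The study made this cross to assess how Prdm9 alleles new to both genomes affect the infertility of the hybrids. It also measured what part of the breaks lay at positions cut on both homologs. As each genotype was sequenced once for DMC1, no test between genotypes was made, and intervals cover counting error or the spread between hotspots of these libraries only.

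PRDM9 is a zinc finger protein of meiotic cells that binds a DNA motif, places H3K4me3 beside it and so directs SPO11 to make a DSB. The ends are resected and coated by the recombinase DMC1, whose single-stranded DNA is what SSDS sequences. Because a chromosome cut at a motif is repaired by copying a homolog in which the motif may be disrupted, motifs of an allele erode in the lineage that carries it, and in a hybrid the eroded motif is then bound mainly on the chromosome of the other species.

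Sequence could be shown where a hotspot center fell inside a RefSeq promoter window of assembly GRCm38.p6 (250 bases before to 50 after a gene's start). This was so for 9 lost B6 hotspots, 6 gained HUM hotspots, 15 SPRT hotspots called in both libraries and 20 unassigned hotspots of B6/SPRT only. Windows of the unassigned hotspots are not printed. In each of the lost, gained and SPRT sets, the 2 windows with the largest signal are printed 5′ to 3′ on the gene's strand. For SPRT hotspots the signal in B6/SPRT was used. Capitals mark the hotspot center with 20 bases on either side, clipped at the window's end. Among those in promoter windows, the strongest lost B6 hotspots were at Gm34628 (chr4:56478347-56478646, minus strand), where the DMC1 signal was 483 and the B6 fraction 12.7% (the percentage of DMC1 reads assigned to the B6 homolog), and at Gm35726 (chr3:129105751-129106050, minus strand), with 457 and 33.1%.
Gm34628: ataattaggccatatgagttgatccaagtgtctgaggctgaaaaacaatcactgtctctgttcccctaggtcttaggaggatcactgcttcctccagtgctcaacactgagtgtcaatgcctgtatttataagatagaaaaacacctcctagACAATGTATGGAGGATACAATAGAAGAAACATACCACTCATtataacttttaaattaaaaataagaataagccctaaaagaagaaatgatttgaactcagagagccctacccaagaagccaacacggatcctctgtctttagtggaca
Gm35726: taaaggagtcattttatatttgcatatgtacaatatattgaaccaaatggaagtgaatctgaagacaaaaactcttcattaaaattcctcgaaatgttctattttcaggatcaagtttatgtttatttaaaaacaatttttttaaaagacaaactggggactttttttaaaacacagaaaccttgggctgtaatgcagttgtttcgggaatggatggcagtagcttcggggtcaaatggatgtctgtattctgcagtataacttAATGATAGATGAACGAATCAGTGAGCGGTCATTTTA
Among the 6 gained HUM hotspots in promoter windows the strongest were at LOC108168979 (chr4:129354027-129354326, plus strand), with a signal of 251 and no B6 fraction listed, and at Sumo3 (chr10:77613459-77613758, plus strand), which encodes a small ubiquitin-like modifier, with 86.4 and 63.8%.
LOC108168979: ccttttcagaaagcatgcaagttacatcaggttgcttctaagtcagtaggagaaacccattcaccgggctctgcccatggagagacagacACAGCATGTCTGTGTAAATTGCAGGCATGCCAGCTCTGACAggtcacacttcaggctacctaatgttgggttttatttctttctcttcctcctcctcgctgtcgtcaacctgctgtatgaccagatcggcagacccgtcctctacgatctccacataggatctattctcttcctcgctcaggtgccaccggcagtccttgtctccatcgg
Sumo3: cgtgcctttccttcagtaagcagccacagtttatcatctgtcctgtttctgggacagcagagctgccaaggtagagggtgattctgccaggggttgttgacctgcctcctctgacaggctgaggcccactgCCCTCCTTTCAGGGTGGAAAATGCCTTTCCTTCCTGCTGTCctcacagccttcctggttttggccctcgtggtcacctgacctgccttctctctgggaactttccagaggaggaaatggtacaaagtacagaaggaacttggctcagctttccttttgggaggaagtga
The SPRT hotspots at Gm32499 (chr15:32199224-32199523, plus strand) and Gm34419 (chr8:35095110-35095409, plus strand) were called in both libraries. At Gm32499 the signal was 321 in B6/SPRT and 196 in Hum/SPRT and the B6 fraction 99.8 and 98.7%. At Gm34419 it was 226 and 147, with 29.4 and 22.4%.
Gm32499: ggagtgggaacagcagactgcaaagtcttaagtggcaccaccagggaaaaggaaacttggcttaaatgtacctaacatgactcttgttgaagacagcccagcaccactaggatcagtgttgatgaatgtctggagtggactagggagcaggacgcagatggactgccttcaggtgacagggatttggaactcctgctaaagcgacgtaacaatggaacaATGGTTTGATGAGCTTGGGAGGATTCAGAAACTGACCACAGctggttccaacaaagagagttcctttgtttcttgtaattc
Gm34419: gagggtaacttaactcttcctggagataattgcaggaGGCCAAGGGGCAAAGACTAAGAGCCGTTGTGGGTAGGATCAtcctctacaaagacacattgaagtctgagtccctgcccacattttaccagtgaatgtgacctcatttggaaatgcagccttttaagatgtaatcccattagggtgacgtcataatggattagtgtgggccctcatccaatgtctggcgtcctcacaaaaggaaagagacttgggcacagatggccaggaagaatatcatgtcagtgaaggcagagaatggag
The printed windows hold bases of the B6 genome and not of SPRT, and no hotspot sequence outside promoter windows was examined.

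By label, nearly all SPRT hotspots were called in both genotypes and nearly all B6 and HUM hotspots in 1 of them. Of 9247 SPRT hotspots in B6/SPRT, 9214 had a partner in Hum/SPRT (99.6%, 95% Wilson interval 99.5 to 99.7%). Of 4122 B6 hotspots, 4101 had none (99.5%, interval 99.2 to 99.7%), where 47.8% of all B6/SPRT hotspots had none. Of 4485 HUM hotspots in Hum/SPRT, 4464 had no partner in B6/SPRT (99.5%, interval 99.3 to 99.7%), against 38.5% of all Hum/SPRT hotspots. The authors assigned alleles by comparing hotspots with those of other mice, and whether the overlap of these 2 libraries was part of that comparison is not stated. The counts by allele may therefore follow from the labels, and nothing is read from them on their own.

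Across all alleles there were 9665 pairs, with a median distance of 46 bp between centers, and 70.0% of them were within 100 bp. SPRT was the label on both sides of 9128 pairs. A further 86 pairs were SPRT in B6/SPRT and unassigned in Hum/SPRT, 99 the reverse, 294 unassigned in both, 37 KO in both, and 21 were B6 in one library and HUM in the other. No pair joined an SPRT hotspot with a B6 or HUM hotspot. The distance from a gained HUM hotspot to the nearest SPRT hotspot of its library had a median of 72.7 kb and was never below 1.12 kb.

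SPRT hotspots with no partner were few, 33 in B6/SPRT and 16 in Hum/SPRT, and part of them had a hotspot of the other library close by. Within 1000 bp of 13 of the 33 and of 10 of the 16 there was a hotspot of the other library. Those with the largest signal among the 33 were on chromosome 17 at position 58115838 within Cntnap5c (174), on chromosome 12 at position 117956535 within Dnah11 (170.3) and on chromosome 7 at position 39457253 within Zfp939 (166). Those among the 16 were on chromosome 12 at position 117957044, also within Dnah11 (118), on chromosome 17 at position 58116560, also within Cntnap5c (118), and on chromosome 8 at position 8525758, at 41.0 kb from Gm31135 (89.3). At the Dnah11 site 99.9% of reads came from the B6 chromosome in B6/SPRT and 98.0% in Hum/SPRT, and at the Cntnap5c site 99.6 and 98.0%. Both genes thus gave a hotspot without a partner in each library, with centers over 500 but under 1000 bp apart, and whether these were single sites with displaced centers was not tested.

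DMC1 signal was compared as a share, since how the authors scaled it to depth is not stated and read totals are unknown. A share is a hotspot's signal divided by the sum over the autosomal hotspots of its library, given in percent for groups and in parts per 10000 for single hotspots. The mean signal of an autosomal hotspot was 98.7 in B6/SPRT and 69.1 in Hum/SPRT. Lost B6 hotspots had held 18.2% of the signal of B6/SPRT, and gained HUM hotspots held 21.0% of that of Hum/SPRT. SPRT hotspots with a partner held 71.7 and 70.4%. With the 21 paired sites included, HUM hotspots held 21.1% and B6 hotspots 18.3%, a difference of 2.88 percentage points, and among the 5000 strongest hotspots of each library the difference was -0.348, so its sign depends on the weaker hotspots.

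**Figure D1:**
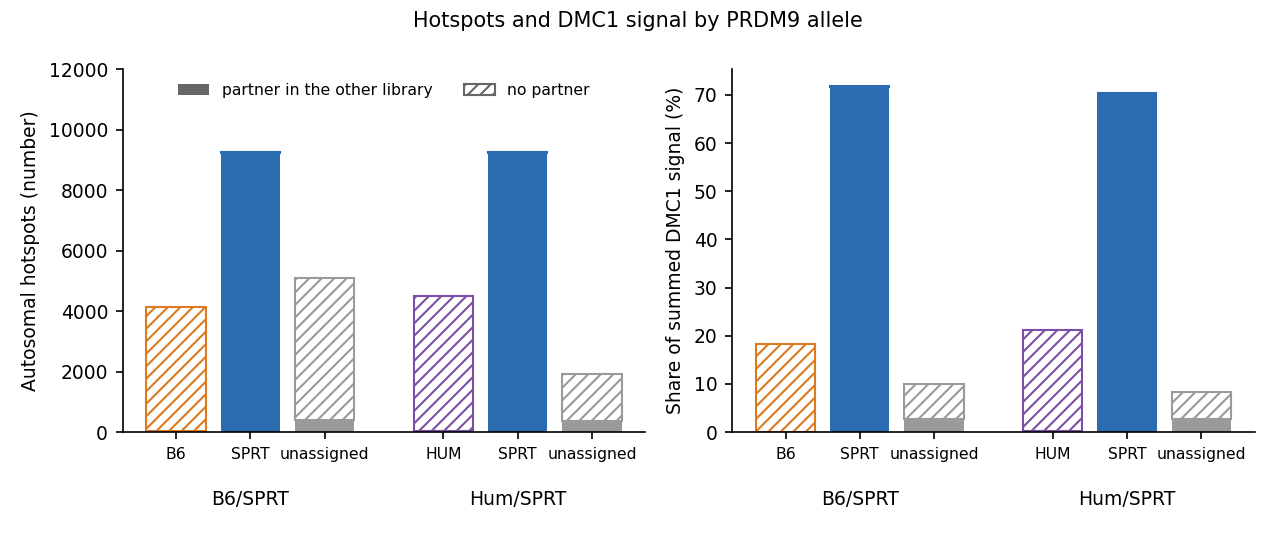
Autosomal hotspots (left, number) and share of summed DMC1 signal (right, %) by assigned allele in B6/SPRT and Hum/SPRT, 1 library each. Filled parts have a partner within 500 bp in the other library and hatched parts have none; nearly all of the 9247 SPRT hotspots of B6/SPRT are filled, while the B6 and HUM bars are almost wholly hatched.

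At hotspots labelled SPRT in both libraries, DMC1 shares were nearly the same in both genotypes. Labels may depend on the overlap of these libraries, so SPRT-allele sites of only 1 genotype may be unassigned. The values therefore describe the paired hotspots and not all breaks of the allele. Across the 9128 SPRT pairs the shares in the 2 libraries had Pearson's r of 0.956 on the log2 scale and Spearman's rho of 0.964, as a description across hotspots of 1 library each. The median log2 ratio of the share in Hum/SPRT to that in B6/SPRT was -0.09 (95% interval of the median from order statistics -0.10 to -0.08), with the middle 50% of hotspots between -0.31 and 0.12. Among the 5000 strongest hotspots of each library it was -0.0079 (-0.017 to 0.00089), an interval that includes 0. Over all 9128 SPRT pairs, the share changed by less than 1.5-fold at 88.2% of hotspots. It was at least 2-fold higher in Hum/SPRT at 78 of them (0.855%), where 1.84% of all pairs were, and at least 2-fold lower at 79 (0.865%), where 1.08% of all pairs were.

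**Figure D2:**
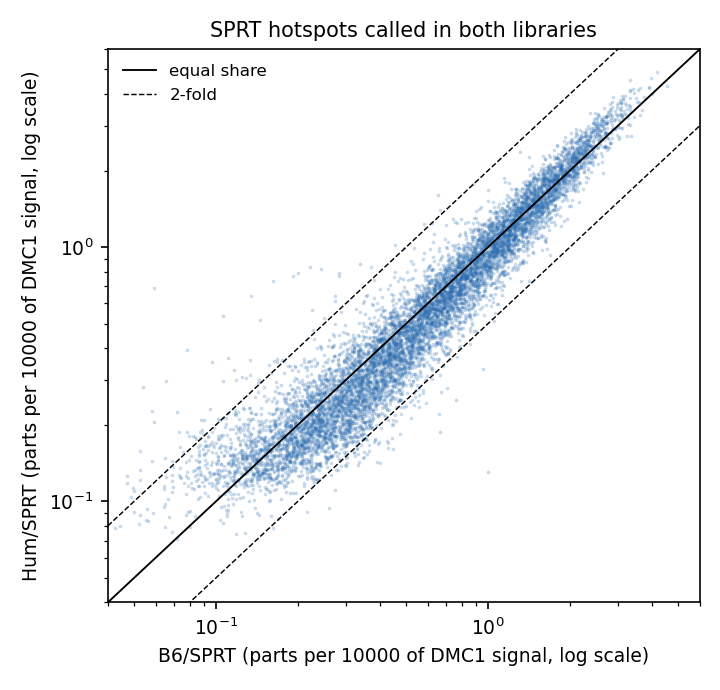
Share of DMC1 signal at the 9128 SPRT hotspots called in both libraries, in parts per 10000, B6/SPRT on the horizontal and Hum/SPRT on the vertical axis, both logarithmic. Each point is a hotspot, the solid line marks equal shares and the dashed lines a 2-fold difference; 78 points lie on or above the upper dashed line and 79 on or below the lower.

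Among the strongest SPRT hotspots the shares differed little. The hotspot within Tmem144, on chromosome 3 at position 79812956, had a signal of 766 in B6/SPRT and 528 in Hum/SPRT, or 4.19 and 4.86 parts per 10000. The hotspot within Ttc14, on the same chromosome at position 33809696, had 833 and 468, or 4.56 and 4.31 parts. On chromosome 15 at position 24887481, at 66.8 kb from Gm22810, a small nuclear RNA gene, the signal was 724 and 500.4, or 3.96 and 4.61 parts. The share was higher in Hum/SPRT at the Tmem144 and chromosome 15 sites, where nearly all reads came from the B6 chromosome (99.5 and 99.9% in B6/SPRT), and slightly lower at the Ttc14 site, which was cut about evenly on both homologs (51.5 and 47.0% of reads from B6).

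Changes of at least 2-fold were mostly at weak SPRT hotspots. When SPRT pairs were split into 10 classes by strength, 35 of the 78 with a higher share were in the weakest class, and 22 of the 79 with a lower share were in class 3 and 22 in class 4. Among pairs whose arithmetic mean of the 2 shares was above the median of that mean, a measure other than the geometric mean that sets the classes, the highest ratio was within Ube3a, a ubiquitin ligase gene, on chromosome 7 at position 59285040, where the share was 0.283 in B6/SPRT and 0.791 in Hum/SPRT (log2 ratio 1.48). Its centers were 449 bp apart in the 2 libraries and its B6 fraction was 20.5 and 4.55%, so that both calls may not be of a single site. The site within Ccdc59, on chromosome 10 at position 105845457, had shares of 0.339 and 0.856 (1.33), and the site on chromosome 17 at position 55068924, at 74.2 kb from the pseudogene Gm46577, had 0.652 and 1.60 (1.29). The lowest ratio was within Pdcd11, a gene of ribosome assembly, on chromosome 19 at position 47125708, where the share was 1.002 in B6/SPRT and 0.130 in Hum/SPRT (-2.94). At the site 2.88 kb from Lhx8, on chromosome 3 at position 154303410, it was 0.956 and 0.331 (-1.53), and on chromosome 18 at position 19600131, at 49.7 kb from the pseudogene Gm7720, 0.770 and 0.368 (-1.06). At the Pdcd11 site 53.7% of H3K4me3 reads came from the B6 chromosome in B6/SPRT and 90.4% in Hum/SPRT.

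The change at SPRT hotspots depended on their strength. The classes hold 912 or 913 SPRT pairs each, ordered by the geometric mean of the shares in both libraries. The median log2 ratio was 0.06 in the weakest class, -0.22, -0.26 and -0.23 in the next 3, then rose class by class to 0.01 in the ninth and 0.10 in the strongest. In the strongest class 71.4% of hotspots had a higher share in Hum/SPRT and none changed 2-fold, whereas in class 4 it was 25.1%. The strongest class held 20.01% of all signal in B6/SPRT and 21.5% in Hum/SPRT, whereas classes 2 to 8, 6389 hotspots, held 36.2 and 33.1%. Signal at SPRT hotspots was therefore somewhat more concentrated in the strong ones in Hum/SPRT.

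The lowest listed signal was 7.504 in B6/SPRT and 7.499 in Hum/SPRT, which is 0.0411 and 0.0691 parts per 10000, so that the weakest hotspots that could be paired differed in share between the libraries. The part of this limit in the rise of the weakest class was not tested. Over pairs with a signal of at least 30 in both libraries, a setting chosen after seeing the data, the median over SPRT pairs was -0.055.

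**Figure D3:**
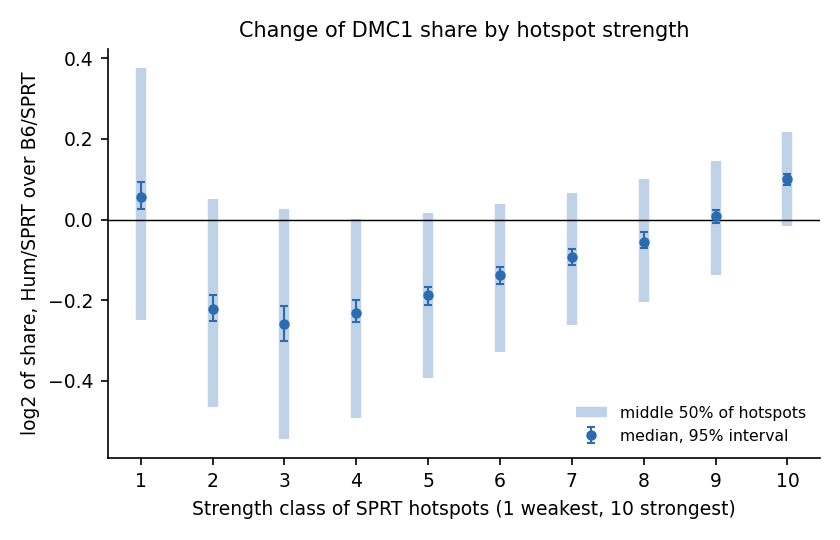
Log2 ratio of DMC1 share, Hum/SPRT over B6/SPRT, in 10 strength classes of the 9128 SPRT pairs. Points are medians with 95% order-statistic intervals and pale bars span the middle 50% of hotspots; medians lie between -0.26 in class 3 and 0.10 in class 10.

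The change at SPRT hotspots also differed between autosomes. Its median was negative on 15 of the 19 autosomes and positive on 4, and its interval lay below 0 on 13 and above 0 on 1. The intervals treat the hotspots of an autosome as independent and come from 1 library per genotype. The counts are therefore descriptions, and no test between autosomes was made. On chromosome 18 it was -0.36 (interval -0.40 to -0.31), and only 35 of 333 hotspots had a higher share in Hum/SPRT. On chromosome 11 it was -0.28 (-0.32 to -0.24), with 94 of 515 hotspots higher, and on chromosome 12 it was 0.07 (0.02 to 0.09), with 257 of 453 higher, but 0.16 over its proximal part and -0.06 over its distal part. The change on chromosome 18 was negative in each part looked at. The median was -0.41 over the proximal part and -0.32 over the distal part of the chromosome, and by the homolog broken in B6/SPRT it was -0.31 for mainly B6, -0.37 for both about equally (matched) and -0.37 for mainly SPRT.

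Across the 19 autosomes the medians of hotspots cut mainly on B6 and of matched hotspots had Pearson's r of 0.772, and those of the first and second part of each chromosome 0.680. Among the 1000 strongest SPRT pairs, which together had a median of 0.10, the median was positive on every autosome but chromosome 18, where 47 hotspots had -0.11. It was 0.07 on chromosome 11 and 0.08 on chromosome 17, so the sign on most autosomes depends on the weaker hotspots. With the length of the chromosome, taken as the position of its last hotspot, the median had r of 0.490 and rho of 0.407, and r of 0.409 without the 2 chromosomes farthest from the median length. These are descriptions over 19 chromosomes that share the same 2 libraries. The median log2 change of H3K4me3 enrichment share on chromosome 18 was -0.13, where all SPRT pairs had -0.10, and over the autosomes the DMC1 and H3K4me3 medians had r of -0.237.

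Chromosome 18 as a whole lost share, at its SPRT hotspots and also at hotspots that were unassigned or KO, while HUM hotspots held more than B6 hotspots had. It held 4.21% of all autosomal DMC1 signal in B6/SPRT and 3.75% in Hum/SPRT, and its SPRT hotspots 3.11 and 2.58%, while its B6 hotspots held 0.690% and the HUM hotspots that replaced them 0.921%. Chromosome 11 held 5.72 and 5.09%, its SPRT hotspots 3.97 and 3.44%, and its B6 and HUM hotspots 1.18 and 1.12%. Over the autosomes the ratio of total shares ran from 0.889 on chromosome 11 to 1.07 on chromosome 6. In CAST/SPRT, hybrids of this cross with a CAST Prdm9 allele, compared with the same B6/SPRT library over 5025 SPRT hotspots, the median was -0.20 in all, -0.33 on chromosome 18, -0.42 on chromosome 11, -0.49 on chromosome 19 and -0.06 on chromosome 12. As both comparisons use the B6/SPRT library, these values are not independent of each other.

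**Figure D4:**
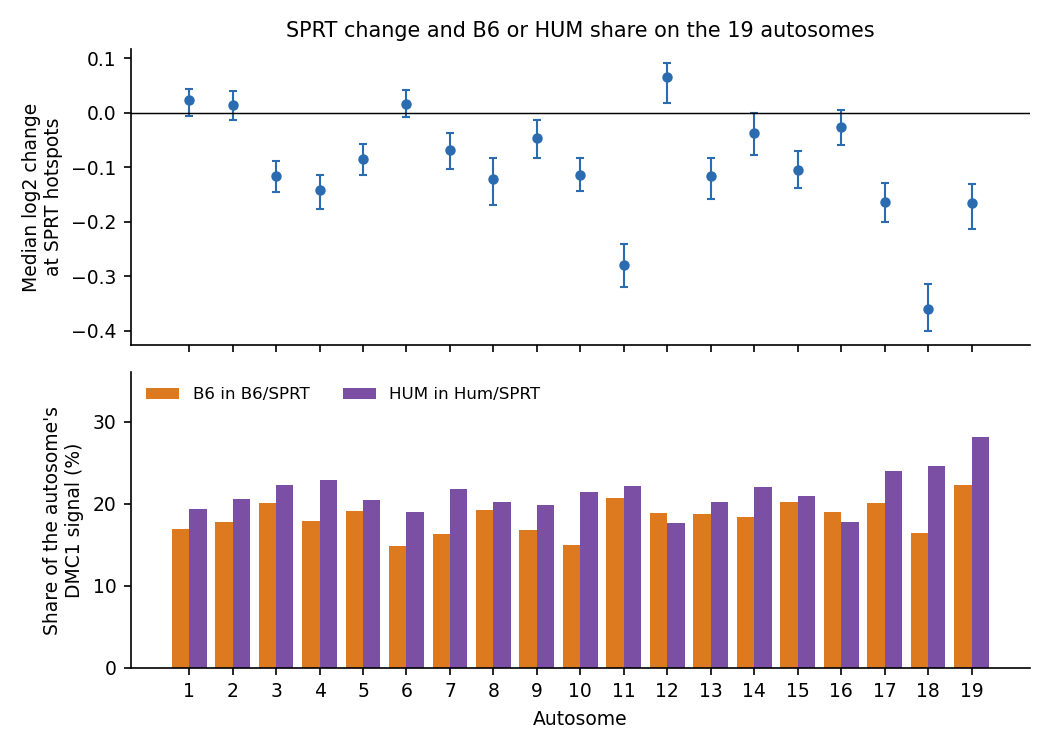
Top, median log2 ratio of DMC1 share (Hum/SPRT over B6/SPRT) at SPRT hotspots on each of the 19 autosomes, with 95% order-statistic intervals. Bottom, share of each autosome's DMC1 signal held by B6 hotspots in B6/SPRT and by HUM hotspots in Hum/SPRT (%); chromosome 18 has the lowest median (-0.36) and the largest difference between HUM (24.6%) and B6 (16.4%).

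The change at SPRT hotspots was set beside the presence of lost and gained hotspots nearby. With a lost B6 hotspot within 50 kb (1684 hotspots) the median log2 ratio was -0.10 (interval -0.12 to -0.08), and with none (7444 hotspots) it was -0.08 (-0.09 to -0.08), a difference of -0.02. With a gained HUM hotspot within 50 kb (1823 hotspots) it was -0.10 and without (7305 hotspots) -0.08. At the 405 SPRT hotspots with both it was -0.10, and at the 6026 with neither -0.08. Within 200 kb the contrast was larger for gained hotspots, with -0.11 where a HUM hotspot was gained (5048 hotspots) and -0.06 where none was (4080 hotspots), and for lost B6 hotspots it was -0.09 and -0.08. The intervals at 200 kb were -0.12 to -0.09 with a gained HUM hotspot and -0.08 to -0.05 without. They treat hotspots as independent, although changes were shared along chromosomes, so they are too narrow to judge this contrast.

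Which homolog was cut at an SPRT hotspot changed little between the genotypes. Hotspots with over 75% of reads from one chromosome were taken as cut mainly there, and those with 25 to 75% from B6 as matched. Of 4327 pairs cut mainly on the B6 chromosome in B6/SPRT, 97.0% were so in Hum/SPRT, and of 1913 matched pairs 93.0% stayed matched. Of 717 pairs cut mainly on the SPRT chromosome 84.4% stayed so, and the other 112 were matched. None went from one homolog to the other.

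B6 fractions in Hum/SPRT were less extreme. At pairs cut mainly on B6 in both libraries the median B6 fraction was 99.0% in B6/SPRT and 96.2% in Hum/SPRT, and at pairs cut mainly on SPRT in both it was 4.49 and 11.1%. Both groups were nearer to 50% in Hum/SPRT, at 81.4 and 85.0% of their hotspots. At the 637 pairs cut mainly on B6 among the 1000 strongest, classed by B6/SPRT alone, the medians were 99.3 and 98.8%. All 4327 pairs so classed had 98.9 and 96%. The 16 strong pairs cut mainly on SPRT in B6/SPRT had 5.89 and 5.86%, and all 717 so classed had 5.88 and 13.3%. Taken pair by pair, Hum/SPRT minus B6/SPRT had a median of 0.58 percentage points at the 16 and 5.30 at the 717. Of the 16, 14 were nearer to 50% in Hum/SPRT, and of the 717, 87.3% were. The difference was thus smaller at strong hotspots. Since the number of reads behind a fraction is unknown, the part of depth in this difference was not tested. The median log2 ratio of share was -0.10 at pairs cut mainly on B6, -0.11 at matched pairs and -0.03 at pairs cut mainly on SPRT, each class defined by both libraries.

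Across all SPRT pairs the change of DMC1 share was almost uncorrelated with that of H3K4me3 share, though medians at pairs with 2-fold changes went the same way. Over the 9128 SPRT pairs the log2 changes of DMC1 share and of H3K4me3 enrichment share had Pearson's r of 0.0496 and Spearman's rho of 0.0172, and over the 1000 strongest pairs -0.0395 and -0.0389. At the 78 pairs with a 2-fold higher DMC1 share the H3K4me3 share had a median log2 change of 0.15, and at the 79 with a 2-fold lower DMC1 share -0.21, where all SPRT pairs had -0.10. H3K4me3 values are the authors' single values per genotype, so their own error is unknown.

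The B6 hotspots that were lost and the HUM hotspots that were gained differed in where they were cut. Among the 2526 lost B6 hotspots with a B6 fraction, 61.7% (95% Wilson interval 59.8 to 63.6%) were cut mainly on the SPRT chromosome, 25.5% (23.8 to 27.2%) were matched and 12.8% (11.5 to 14.1%) were cut mainly on B6. Among 3289 gained HUM hotspots it was 18.6% (17.3 to 19.97%), 43.3% (41.6 to 45.0%) and 38.1% (36.5 to 39.8%). The median B6 fraction was 12.7% at lost B6 hotspots and 55.6% at gained HUM hotspots. H3K4me3 reads differed the same way, with medians of 37.8 and 60.2% from the B6 chromosome.

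The matched share was lower among the strongest lost B6 hotspots, and higher among the strongest gained HUM hotspots, than over each whole set. By median signal, though, matched HUM hotspots (33.6) were not the strongest class. HUM hotspots cut mainly on SPRT had 39.2 and those cut mainly on B6 29.8. Of the 100 strongest lost B6 hotspots 49 had a fraction, and 44 of these were cut mainly on SPRT, 4 were matched and 1 was cut mainly on B6. Of the 100 strongest gained HUM hotspots 59 had one, and 14 were cut mainly on SPRT, 39 were matched and 6 were cut mainly on B6. Matched hotspots thus made up 8.16% (Wilson interval 3.22 to 19.2%) of the strongest lost B6 hotspots and 66.1% (53.4 to 76.9%) of the strongest gained HUM hotspots. Over the 1000 strongest the matched share was 10.96% (8.68 to 13.8%) and 49.3% (45.5 to 53.0%). Where a fraction was listed, the strong B6 hotspots were nearly all asymmetric and the strong HUM hotspots were not, but many strong hotspots of both sets had none.

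By signal, 66.1% of that at lost B6 hotspots lay where under 10% of reads came from B6. The HUM hotspots had 9.77% of their signal there, and their largest part on one side, 24.3%, lay where at least 90% of reads came from B6, against 4.42% for B6 hotspots. Of the signal at all HUM hotspots with a fraction, 46.7% was at matched hotspots, 32.3% at those cut mainly on B6 and 21.0% at those cut mainly on SPRT, against 15.03, 5.57 and 79.4% for B6 hotspots. Asymmetric signal was thus over 50% at both B6 and HUM hotspots, but that at HUM hotspots was divided between the homologs. These values cover labelled hotspots only. Of all Hum/SPRT signal with a fraction, unassigned hotspots cut mainly on SPRT held 3.57% and such HUM hotspots 4.01%. In B6/SPRT unassigned hotspots cut mainly on SPRT held 2.94% and such B6 hotspots 10.9%. Which allele made the unassigned breaks is unknown.

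**Figure D5:**
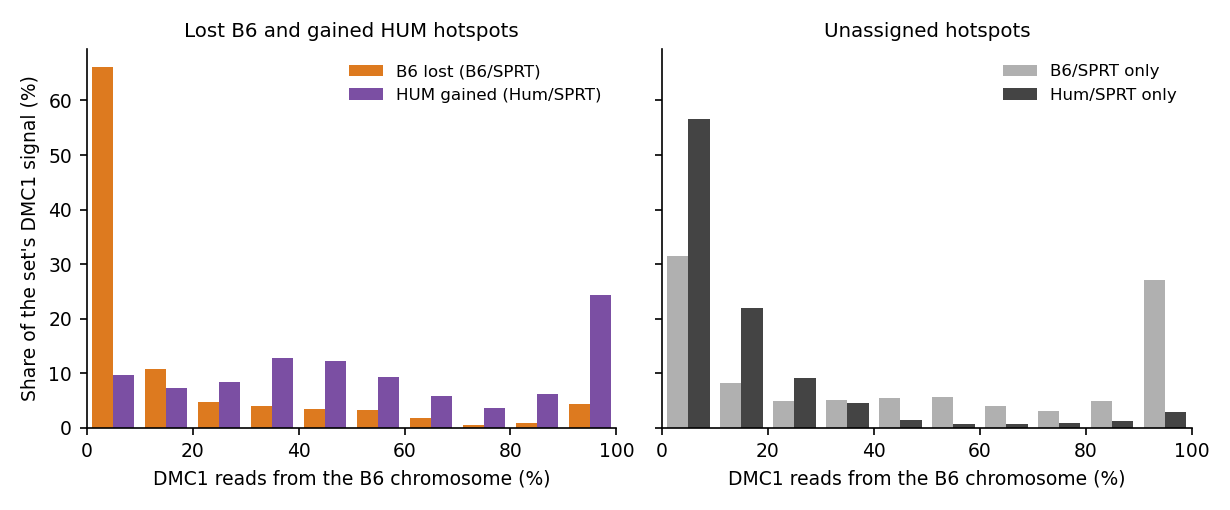
Share of DMC1 signal (%) by the percentage of DMC1 reads from the B6 chromosome, in steps of 10, over hotspots with a listed fraction. Left, 2526 lost B6 and 3289 gained HUM hotspots; right, 3411 unassigned hotspots of B6/SPRT only and 825 of Hum/SPRT only; lost B6 signal is concentrated below 10% (66.1%), and so is that of the Hum/SPRT-only unassigned hotspots (56.5%).

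For the autosomes as a whole, the matched part of DMC1 signal was higher and the part cut on the SPRT chromosome lower in Hum/SPRT. Of all signal at autosomal hotspots with a B6 fraction, matched hotspots held 24.4% in B6/SPRT and 28.7% in Hum/SPRT. B6 hotspots contributed 2.07 points to the former and HUM hotspots 8.92 points to the latter, while SPRT hotspots contributed 19.9 and 18.5 and unassigned hotspots 2.35 and 1.26. Hotspots cut mainly on the SPRT chromosome held 18.8 and 12.5%, to which B6 hotspots contributed 10.9 points and HUM hotspots 4.01. Hotspots cut mainly on B6 held 56.9 and 58.8%. SPRT hotspots made up most of this last part in both genotypes, with 52.3 and 50.8 points. A B6 fraction was listed for 74.1 and 75.02% of hotspots.

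The positions of gained HUM and B6 hotspots were compared at several scales. The nearest B6 hotspot was a median of 155 kb from a gained HUM hotspot, with 4.996% within 10 kb and 22.2% within 50 kb. Gained hotspots have no partner within 500 bp by definition and no chance distance was computed, so these distances do not show that the sets lie apart. In 254 windows of 10 Mb the signal shares of B6 hotspots in B6/SPRT and HUM hotspots in Hum/SPRT had Pearson's r of 0.584, those of B6 and SPRT hotspots within B6/SPRT 0.530, those of HUM and SPRT hotspots within Hum/SPRT 0.444, and those of SPRT hotspots in the 2 libraries 0.944. The numbers of B6 and HUM hotspots per autosome had r of 0.888. Protein-coding genes contained 56.2% (Wilson interval 54.7 to 57.7%) of lost B6 hotspots, 59.2% (57.8 to 60.7%) of gained HUM hotspots and 53.1% (52.1 to 54.1%) of SPRT hotspots called in both libraries, where they contained 53.4% of all B6/SPRT and 54.9% of all Hum/SPRT hotspots and 51.2% of the unassigned ones found only in B6/SPRT. Within 1 kb of an end of such a gene there were 2.78, 2.60 and 2.71%, and 2.82 and 2.80% of all hotspots. The windows, numbers and gene shares describe these libraries and share the density of hotspots and genes along the genome.

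Per autosome, HUM hotspots held between 17.6 and 28.1% of the signal of the chromosome and B6 hotspots between 14.9 and 22.3%. HUM exceeded B6 on 17 of the 19 autosomes. The difference was largest on chromosome 18, with 24.6% for HUM and 16.4% for B6 (8.19 percentage points), and was -1.25 on chromosome 12 and -1.17 on chromosome 16. There were more HUM than B6 hotspots on 14 autosomes. Across autosomes the change at SPRT hotspots was unrelated to the log2 ratio of HUM to B6 share (r -0.0484).

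Relative to SPRT hotspots of the same library, the median listed HUM hotspot was stronger than the median listed B6 hotspot had been, but this did not hold for strong hotspots. The median signal in B6/SPRT was 43.7 at lost B6 hotspots and 103 at hotspots labelled SPRT in both libraries, a ratio of 0.424. In Hum/SPRT gained HUM hotspots had 33.8 and the same SPRT hotspots 54.6, a ratio of 0.619. At the 90th percentile the signal was 203 for lost B6 and 311 for SPRT hotspots in B6/SPRT, and 109.6 for gained HUM and 191 for SPRT hotspots in Hum/SPRT, so there the B6 allele stood nearer to SPRT. Median H3K4me3 enrichment over input was 5.88 at lost B6 and 8.13 at SPRT hotspots of B6/SPRT (ratio 0.723), and 5.83 at gained HUM and 4.95 at SPRT hotspots of Hum/SPRT (ratio 1.18). B6 signal was the more concentrated, with 64.1% of it at the 1000 strongest lost B6 hotspots and 52.9% of HUM signal at the 1000 strongest gained HUM hotspots.

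The lost hotspot with the largest signal (729, or 3.99 parts per 10000) was on chromosome 3 at position 65655101, at 4.19 kb from the microRNA gene Mir8120, and 0.183% of its DMC1 reads and 7.66% of its H3K4me3 reads came from B6. The next were on chromosome 13 at position 116403483, at 93.8 kb from Isl1 (a LIM homeodomain transcription factor), with 706 and no DMC1 fraction listed, and on chromosome 13 at position 3599921 within Tasor2, with 634 and 1.06% from B6. The strongest gained HUM hotspot (422, or 3.88 parts per 10000) was on chromosome 10 at position 17565320 inside Gm32543, a gene of noncoding RNA, with 39.9% of DMC1 and 56.7% of H3K4me3 reads from B6. It was followed by chromosome 18 at position 34810484 within Kdm3b, a histone demethylase gene, with 368 and 44.7%, and by chromosome 14 at position 27101343 within Il17rd, with 347 and no DMC1 fraction. The lost hotspots with a fraction were cut on the SPRT chromosome and the gained ones on both. Positions are those of the tables, mm10 by the submitters' processing notes, and genes are named for location only, as the annotation used gives gene spans without exons.

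Only 21 sites were B6 hotspots in B6/SPRT and HUM hotspots in Hum/SPRT, with a median of 161 bp between centers. Their DMC1 signal had a median of 20.02 (7.63 to 154) under the B6 allele and 50.8 (10.1 to 356) under the humanized allele, and the share was higher in Hum/SPRT at 18 of 21. By mean share the first was on chromosome 19 at position 53093556 inside the noncoding RNA gene Gm30234, where the signal was 154 and 271, the share 0.844 and 2.50, and the B6 fraction 97.1 and 97.0%. The next was on chromosome 4 at position 32726909 within Mdn1, a gene of ribosome assembly, with a signal of 8.63 and 356 and a B6 fraction of 44.4 and 46.2%. The third, on chromosome 17 at position 80626059 within Map4k3, had 123 and 198. At Mdn1 a B6 hotspot near the lower limit of the table coincided with one of the strong HUM hotspots, and the share was 69.4-fold higher. Among the 12 pairs with a fraction in both libraries 6 were in the same class of cutting.

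The lost and gained hotspots were also looked up in another cross, of B6 with the STUS strain, with wild-type (STUS/B6) or humanized (STUS/Hum) Prdm9 opposite the STUS allele. Of lost B6 hotspots 83.9% (Wilson interval 82.7 to 85.0%) had a hotspot within 500 bp in STUS/B6 and 0.366% (0.222 to 0.603%) in STUS/Hum. Of gained HUM hotspots 74.6% (73.3 to 75.8%) had one in STUS/Hum and 0.806% (0.583 to 1.11%) in STUS/B6. Those found were the stronger ones: the median signal in B6/SPRT was 46.3 for B6 hotspots found in STUS/B6 and 30.9 for those not found, and in Hum/SPRT 38.5 and 23.8 for HUM hotspots found or not found in STUS/Hum. Across the hotspots found, signal in the 2 crosses had Spearman's rho of 0.662 for B6 and 0.618 for HUM. These libraries may have served the authors to assign alleles, so the presence of a hotspot there is not independent of its label.

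Hotspots with no assigned allele made up much of what differed between the libraries by number. In B6/SPRT 5103 of 18522 hotspots were unassigned and in Hum/SPRT 1924 of 15727. Of these 4710 (92.3%) and 1544 (80.2%) had no partner, where 47.8 and 38.5% of all hotspots had none, and they made up 53.2 and 25.5% of the hotspots without one. They were weak, with a median signal of 18.7 and 24.5, and held 7.27 and 5.65% of the DMC1 signal. Within 500 bp of the 4710 there was a hotspot in STUS/B6 at 92 and in CAST/SPRT at 22. For the 1544 it was 117 in STUS/Hum and 32 in CAST/SPRT, so that few of either set were seen in these other libraries. As alleles were assigned by comparison with other mice, this may follow from the lack of a label, and nothing is read from it.

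By number, the unassigned hotspots of the 2 libraries differed in the homolog cut. Among 825 found only in Hum/SPRT and with a fraction, 70.7% (Wilson interval 67.5 to 73.7%) were cut mainly on the SPRT chromosome, 21.2% (18.6 to 24.1%) were matched and 8.12% (6.45 to 10.2%) were cut mainly on B6. Among 3411 found only in B6/SPRT it was 28.0% (26.5 to 29.5%), 30.2% (28.7 to 31.8%) and 41.8% (40.2 to 43.5%). By signal, the B6/SPRT-only set had 31.5% of its total where under 10% of reads came from B6 and 27.1% where at least 90% did, and the Hum/SPRT-only set had 56.5 and 2.93%. Which allele made these breaks was not assigned, and it was not inferred here.

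KO pairs and pairs of a B6 with a HUM hotspot had the largest median changes. At the 37 KO hotspots called in both libraries the share was higher in Hum/SPRT at 33, with a median log2 ratio of 1.16 (interval 1.06 to 1.30), and the 21 pairs of a B6 with a HUM hotspot also had 1.16 (0.42 to 1.56), where all pairs had -0.08. The median signal of the KO pairs was low, 11.1 in B6/SPRT and 16.7 in Hum/SPRT, near the lower limit of the tables, and they held 0.0527 and 0.0807% of the signal. The 294 pairs unassigned in both libraries had a median of 0.10 (interval -0.003 to 0.19).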

How the data were processed

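DMC1 SSDS was made from whole testis, 1 library per genotype. The authors mapped reads (BWA and mm10 are named in the submitters' processing notes, without a version), called hotspots in each library, labelled hotspots by PRDM9 allele from comparisons with other mice and used SNPs to tell the homologs apart. Per hotspot the authors deposited a DMC1 signal whose scaling to depth is not stated, and the fraction of its reads that carry B6 variants, without read numbers. For H3K4me3 they deposited 1 ratio of enrichment over input and 1 fraction of reads from B6 per genotype, taken here as pooled over samples. Tables were assigned to genotypes by the alleles they name. A further 27 columns of values were not used; among them are the authors' p-values and their mark of shared hotspots.

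Hotspots on the 19 autosomes were paired by mutually nearest centers within 500 bp, and shares, medians and correlations were computed under Python 3.11.15 with scipy 1.17.1, numpy 2.4.6 and pandas 2.3.3, and drawn by matplotlib 3.10.9. Pairing was also run on simulated data, of which no result is given here. Shares of hotspots have 95% Wilson intervals and medians order-statistic intervals, for counting error only. Named hotspots are the 3 largest by signal or arithmetic mean share in each class of lost, gained and paired hotspots, and the 3 highest and 3 lowest changes among SPRT pairs above the median mean share. Members and lists were chosen with earlier results of these data known. Promoter windows and genes are from RefSeq (GRCm38.p6). Alternatives covered the pairing distance, the strongest hotspots, the denominator of shares and the distance to neighbours.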

Additional observations from a re-analysis of the deposited data

How the results depend on the processing

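With centers within 250 bp, 1000 bp or among the 5000 strongest hotspots, SPRT hotspots shared were 95.1, 99.8 and 90.8%, B6 hotspots lost 99.7, 99.1 and 99.9%, and HUM hotspots gained 99.7, 99.1 and 99.9%. Accepting any hotspot within 500 bp changed none of these 3. The median log2 change at SPRT hotspots was -0.11 with shares over assigned hotspots, -0.064 over paired hotspots, -0.0079 among the 5000 strongest and -0.055 over pairs with a signal of at least 30, the last chosen after seeing the data. It was negative in each, though the interval among the 5000 strongest (-0.017 to 0.00089) included 0, and the cause of the differences was not tested. The difference beside lost B6 hotspots was 0.049 among the 5000 strongest, where 171 hotspots had such a neighbour (-0.0088 to 0.086), and between -0.018 and 0.0039 at the other distances. Its interval covers only the median of the hotspots with a neighbour and is too narrow for a difference. HUM minus B6 share was 2.79 percentage points over assigned hotspots and -0.348 among the 5000 strongest. No paired analysis was possible because each genotype has 1 DMC1 library, and unknown read depth limits every fraction.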
